A study of Mus musculus with 4 samples.

Results

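Retained introns are introns that stay in the mature transcript instead of being removed. The authors' splicing table marks them with the event code iret. All events with that code were taken, which gave 197 events in 188 genes, out of 1223 splicing events in 915 genes. Events without a gene name took the name printed above them, and all 197 lie on the chromosome and strand of an annotated gene of that name. Testes were taken from male C57BL/6 mice at postnatal day 25, from 2 wild type (WT) and 2 Ptbp2-deficient conditional knockout (cKO) animals, with 1 library each. The Cre line behind the deletion is not given in the sources used here. Each event carries 1 deposited value, ΔPSI, in percentage points, the shift in percent spliced in from one genotype to the other. No value per library comes with it, so no replicate error can be given. The header states neither which genotype was subtracted nor which form of an intron counts as spliced in. A sign is therefore reported as such, and not as more or less retention.

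The product of Ptbp2 belongs to the polypyrimidine tract binding (PTB) proteins, which bind pyrimidine-rich RNA near splice sites and can block or favour their use. Short, GC-rich introns with weak splice sites are the ones most often left in. A retained intron usually brings a premature stop codon, so that the transcript is held in the nucleus or degraded. In germ cells of the testis, many introns are kept in nuclear transcripts during meiosis and spliced later.

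The RPKM (reads scaled by gene length and library size) of Ptbp2 was 65.7 and 66.6 in the WT libraries, against 111 and 98.2 in those labelled cKO. The limma difference was 0.65 ± 0.27 (SE) on the log2 scale, with an adjusted p of 0.0684. The value over a whole gene cannot show a deleted part and does not check the labels, so "labelled cKO" is kept. Markers of cell types were compared between the libraries. Of 20 spermatid markers, 18 are in the expression table, with none at 0 in any library. Their levels summed to 1797 and 2460 RPKM in WT, against 235 and 52.6 RPKM in the libraries labelled cKO. All 18 fell in limma. Of all 988 genes of the expression table, 83.9% fell and 1.92% rose. Of 11 macrophage markers, 3 are in that table, and all 3 rose in limma, with sums of 29.0 and 29.9 against 54.7 and 69.0 RPKM. Hsd3b1, the only 1 of 8 Leydig markers in the expression table, rose from 41.15 and 46.36 to 76.45 and 73.97 RPKM. Actg2, the only 1 of 6 myoid markers there, fell from 32.68 and 35.41 to 6.77 and 6.56 RPKM. Inha, the only 1 of 12 Sertoli markers there, was not called, at 70.19 and 71.69 against 99.61 and 138.26 RPKM. Of 14 spermatocyte markers 2 are listed, and 1 of them fell. None of 12 spermatogonia markers is in the expression table. The part of the cell mix in the ΔPSI values was not tested, and fewer cells of a type cannot be told apart from less RNA per cell.

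The start and end of a retained-intron event enclose both flanking exons as well as the intron. In GENCODE M21, 153 of the 197 spans have the length of an annotated exon, intron and exon of the same gene. For 140 the length is that of some annotated exon of the gene, which was not required here to be the form with the intron kept. Only 3 spans have the length of an annotated intron. With 1 or 2 nt added or taken away, 2 to 12 spans match an exon, intron and exon. End minus start is therefore called the span here, and intron length is given only for the 130 spans that match 1 annotated intron. Of these, 106 have an annotated retained form, whose transcript gives the sequence of the intron. A further 23 spans match several annotated introns, and 44 match none.

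The sequences of introns with a ΔPSI of 20 points or more in either direction show what is kept in the transcript. The whole introns are those of at most 150 nt with sequence, from GENCODE M21 transcripts on build GRCm38. Capitals mark the first 2 and last 2 bases, which are the splice sites, and the first stop codon in the frame of the upstream exon.
Rpl34, intron 2 of 4, ΔPSI -40 (chr3:130729151-130729228, minus strand): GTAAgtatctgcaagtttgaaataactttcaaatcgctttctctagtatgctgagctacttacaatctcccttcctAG
Ncrna00085, now named Spaca6, intron 7 of 9, ΔPSI -36 (chr17:17838244-17838315, plus strand): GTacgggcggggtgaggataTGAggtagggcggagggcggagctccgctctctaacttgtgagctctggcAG
4930404N11Rik, intron 2 of 3, ΔPSI -35 (chr10:81364668-81364741, minus strand): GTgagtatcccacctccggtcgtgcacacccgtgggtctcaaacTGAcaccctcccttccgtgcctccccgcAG
Tmem191c, intron 3 of 9, ΔPSI -35 (chr16:17276888-17276961, plus strand): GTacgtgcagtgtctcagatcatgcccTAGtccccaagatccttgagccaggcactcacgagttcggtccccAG
Tmem191c, intron 6 of 9, ΔPSI -20 (chr16:17277402-17277527, plus strand): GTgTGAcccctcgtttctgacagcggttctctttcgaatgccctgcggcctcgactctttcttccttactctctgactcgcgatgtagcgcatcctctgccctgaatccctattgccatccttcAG
Cpt1c, intron 10 of 18, ΔPSI -20 (chr7:44965267-44965370, minus strand): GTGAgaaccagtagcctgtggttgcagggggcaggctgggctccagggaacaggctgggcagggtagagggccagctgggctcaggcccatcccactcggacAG
Serhl, intron 2 of 11, ΔPSI 20 (chr15:83101794-83101871, plus strand): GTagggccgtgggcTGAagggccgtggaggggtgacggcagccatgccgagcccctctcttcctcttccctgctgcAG
Each of these 7 introns holds an in-frame stop. In Rpl34 and Cpt1c it begins at the second base of the intron, within the splice site itself.

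An eighth short intron was of another kind. The span of Myo9b, an unconventional myosin gene, had a ΔPSI of -22 and matched an annotated intron of 33 nt on chr8:71348902-71348934 of GRCm38, plus strand. It is a multiple of 3 nt, has no stop codon, and its retained form belongs to a protein-coding transcript.
Myo9b, intron 22 of 39: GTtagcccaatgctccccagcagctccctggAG

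Negative values prevailed among retained introns. The ΔPSI was below 0 in 174 introns (88.3%), above 0 in 19 (9.64%) and 0 in 4, while 59.4% of all 1223 events were negative and 38.3% positive. Their median was -8 points, with a range from -52 to 33. Of nonzero values 90.2% were negative (95% Clopper-Pearson interval 85.1 to 94.0%), against 55.1% (51.9 to 58.2%) in the other types together. The other types differed among themselves, with 53.0% for cassette exons and 40.0% for tandem cassettes. Alternative 3' splice sites stood at 73.2% (62.2 to 82.4%). Alternative 5' splice sites stood at 75.5% (61.7 to 86.2%) and mutually exclusive exons at 74.2% (55.4 to 88.1%), with intervals that overlap that of retained introns. These intervals treat events as independent, which events of 1 gene are not, and they cover counting error only.

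Large changes made up a smaller share of the retained introns than of the whole table. The absolute ΔPSI reached 20 points in 26 of 197 (13.2%), against 21.0% of all events, and 10 points in 98 (49.7%), against 56.2%. Of the 26, 20 were at -20 or less (13.3% of all events were) and 6 at 20 or more (7.69% of all events). The median absolute ΔPSI was 9 points, as for alternative 3' and 5' splice sites, against 11 for cassette exons and 11.5 for tandem cassettes. A further 72 introns lay from 10 up to 20 points, 53 from 5 up to 10 and 46 below 5.

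**Figure D1:**
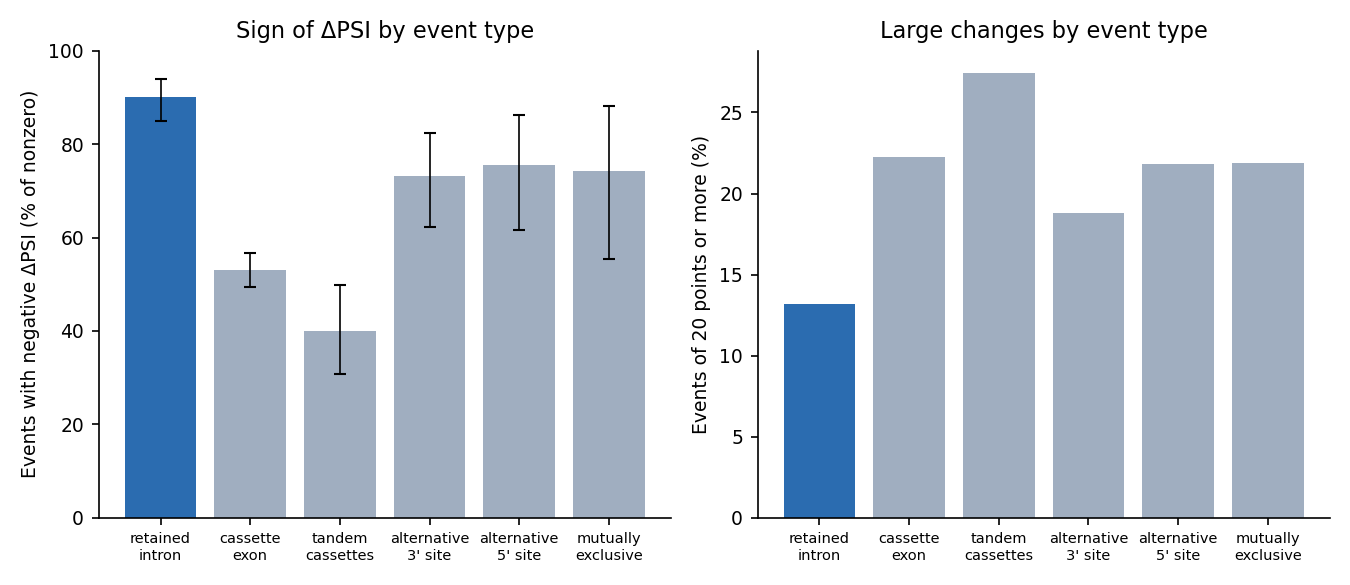
Left, events with negative ΔPSI as a percentage of nonzero events in each type, with 95% Clopper-Pearson intervals; right, the percentage with an absolute ΔPSI of 20 points or more. Retained introns stand at 90.2% negative and 13.2% large, against 53.0% and 22.3% for cassette exons. Alternative 3' and 5' splice sites and mutually exclusive exons stand at 73.2%, 75.5% and 74.2% negative.

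The most negative retained intron was in Pfkfb3, whose enzyme makes an activator of glycolysis, at -52 points (mm9 chromosome 2, 11393452 to 11396170). Rpl34, a protein of the large ribosomal subunit, followed at -40 (mm9 chromosome 3, 130431969 to 130432220). Ncrna00085, which the RefSeq table pairs with Spaca6, a sperm protein needed for fusion with the egg in mice, was at -36. Sugp2, a G-patch protein that resembles splicing factors, 4930404N11Rik and the first of 2 introns of Tmem191c, a predicted membrane protein, were at -35 each. Their spans ran from 252 nt in Rpl34 to 2719 nt in Pfkfb3. The Pfkfb3 span matches no annotated exon, intron and exon, so its intron was not identified.

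Between -27 and -20 points lay 14 further introns. Btbd9 was at -27. Izumo1, the sperm protein that binds the egg receptor Juno, was at -26, and C330006K01Rik, now named Ap5z1, a subunit of an adaptor complex of endosomes, at -25. Jmjd6, an oxygenase that hydroxylates the splicing factor U2AF, was at -24, and Dab2ip, a Ras GTPase-activating protein, at -23. Anks1, 2310033P09Rik, Myo9b and Baiap2, which bends membranes at actin-rich protrusions, were at -22. At -20 stood Ccdc163, the carnitine palmitoyltransferase Cpt1c, the NF-kappaB pathway kinase Ikbkb, the ribosomal protein Rpl12 and the second intron of Tmem191c. Just outside the 20-point threshold, Pdcd4, Slc9a5 and Tubgcp4 were at -19.

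Positive values were led by Itsn2, an endocytic scaffold, at 33 points on chromosome 12 (mm9 4718759 to 4719446). 2310022A10Rik was at 31 and Mta1, a subunit of the NuRD chromatin remodeller, at 26. Prkcd, a protein kinase C, and Boc, a hedgehog co-receptor, stood at 25 and Serhl at 20. Among the 10 most positive were also Fam116b and 2500003M10Rik at 17, Zfpl1 at 16 and Ddx54, an RNA helicase, at 13. The remaining 9 positive introns lay between 1 and 12 points.

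**Figure D2:**
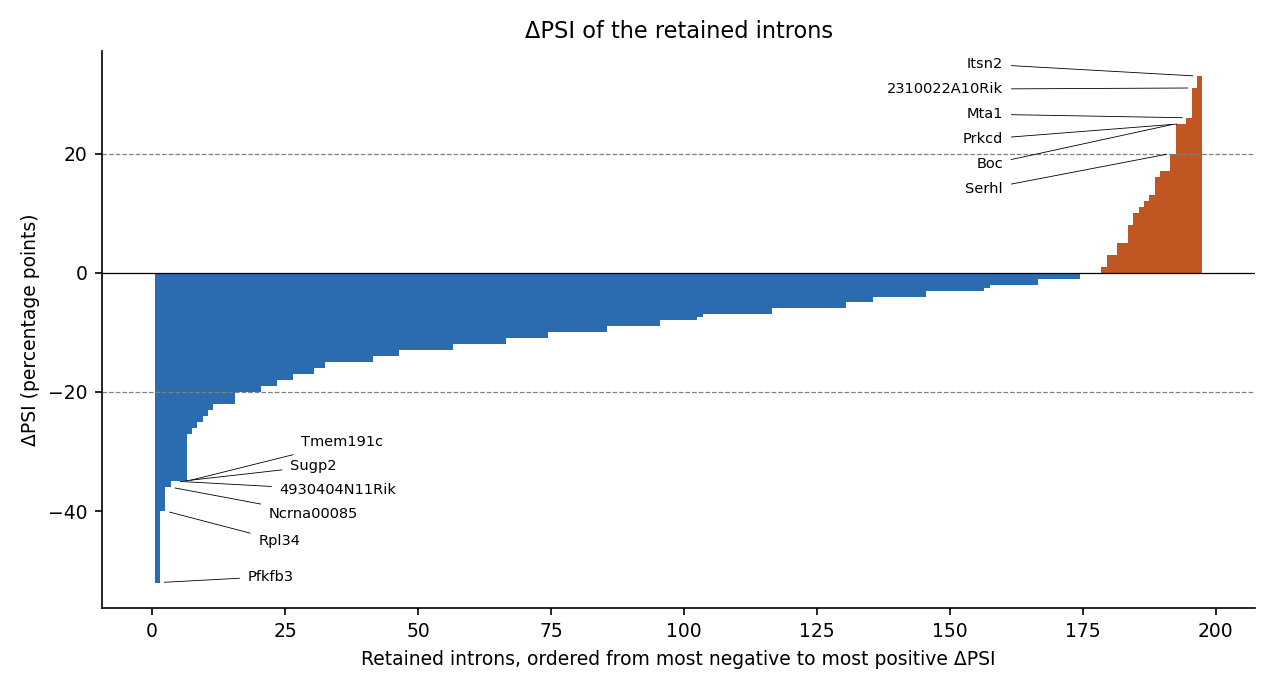
ΔPSI in percentage points (vertical axis) of the 197 retained introns, ordered along the horizontal axis; dashed lines mark 20 points in each direction. Named bars are those at -35 or less and at 20 or more, from Pfkfb3 at -52 to Itsn2 at 33.

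Span length and ΔPSI were weakly related. The span was 661 nt in the median (quartiles 369 and 1366 nt), from 135 nt in BC051142 to 5366 nt in Tmem33. Trim28, a transcriptional corepressor, at 165 nt and the chaperonin subunit gene Cct3 at 192 nt were the next shortest, Tardbp at 5324 nt and Btbd9 at 5047 nt the next longest. Spearman's correlation between span and ΔPSI was -0.17 and Pearson's -0.16 over 197 introns, given as a description. In the 77 spans over 150 and up to 500 nt the median ΔPSI was -6 points, and 10 were positive. The median was -8 in the 73 spans up to 1500 nt, with 7 positive, and -10.5 in the 46 longer ones, with 2 positive. Of the 33 spans over 2000 nt, 0 were positive.

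For the 130 identified introns the median length was 271 nt (quartiles 87.5 and 854.75 nt), from 33 to 3279 nt. All annotated introns of the same 188 genes, 3353 in number, had a median of 709 nt, and the 3864 other annotated retained introns of at least 50 nt in the mouse genome one of 264 nt. The 115 identified introns with negative ΔPSI had a median of 319 nt, and the 13 with positive ΔPSI one of 89 nt. Of 52 introns of at most 150 nt, 43 were negative and 8 positive, while all 17 over 1500 nt were negative. Spearman's correlation between intron length and ΔPSI was -0.12 over 130 introns.

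**Figure D3:**
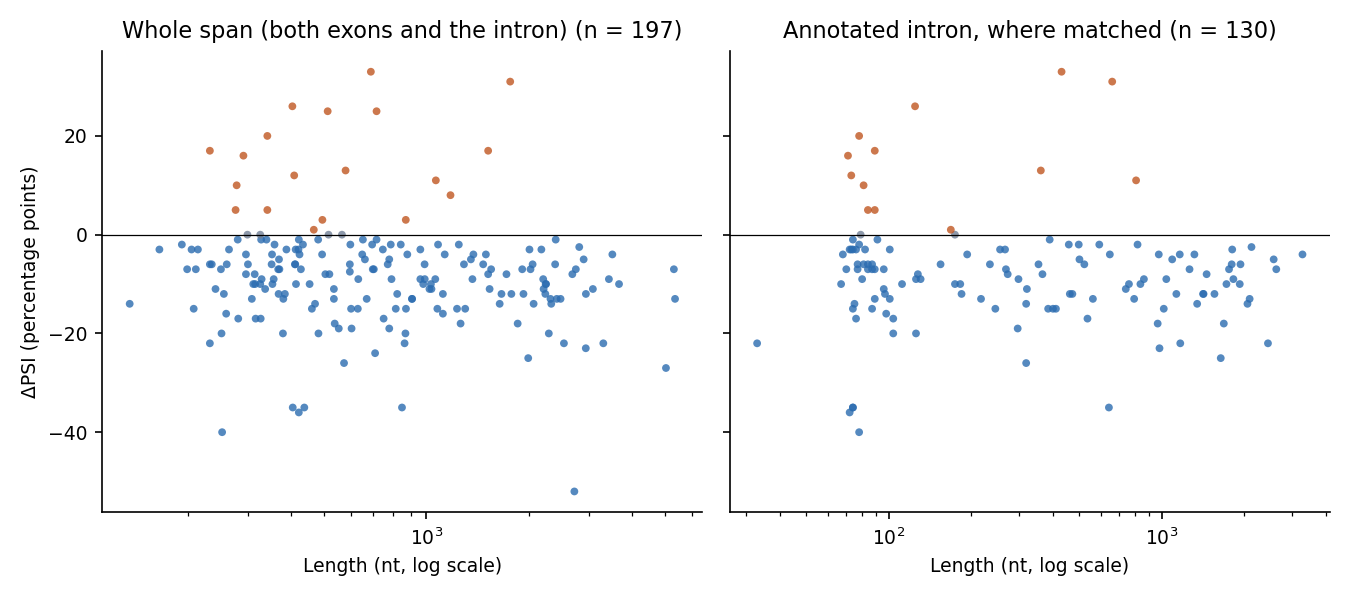
ΔPSI in percentage points against length in nt on a log scale, for the whole span of 197 events (left) and for the annotated intron of 130 (right); each point is 1 intron. Positive values end below 2000 nt of span.

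Most identified introns interrupt coding sequence. Of the 130, 126 lie between the start and stop codon of an annotated transcript, 1 in a 3' UTR and 3 in transcripts without coding sequence at that place. None was the first intron of its transcript and 20 were the last, with a median ΔPSI of -10.5 points against -7 in the 110 inner introns. A span is matched only where both outer exon ends are annotated, so introns beside a variable first exon can be missing here. Among 103 coding introns with sequence, 91 carry an in-frame stop codon, and 8 of the other 12 are a multiple of 3 nt long. The retained form is a transcript of the class retained_intron in 73 of 106 cases, protein coding in 19 and a nonsense-mediated decay target in 11, and 1 intron can count in several classes.

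The 3' ends of longer introns with 20 points or more are shown because PTB proteins are known to bind pyrimidine-rich sequence near 3' splice sites; binding was not measured here. The last 50 nt are given for 6 of them, in GRCm38 coordinates. An intron of Clk1, a kinase of splicing factors, is added because its gene has 2 retained introns. Capitals mark the final AG and each TCTT or CTCTCT, motifs known to be bound by PTB proteins, searched on the transcript strand only, where they may overlap.
Sugp2, ΔPSI -35 (chr8:70261181-70261230, plus strand): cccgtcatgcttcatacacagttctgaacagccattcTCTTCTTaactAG
Izumo1, ΔPSI -26 (chr7:45625492-45625541, plus strand): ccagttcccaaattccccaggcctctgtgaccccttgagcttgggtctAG
C330006K01Rik, ΔPSI -25 (chr5:142472153-142472202, plus strand): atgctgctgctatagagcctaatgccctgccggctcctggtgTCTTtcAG
Dab2ip, ΔPSI -23 (chr2:35729061-35729110, plus strand): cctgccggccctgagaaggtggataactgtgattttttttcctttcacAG
Anks1, ΔPSI -22 (chr17:28060512-28060561, plus strand): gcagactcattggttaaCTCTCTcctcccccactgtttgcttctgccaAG
Clk1, ΔPSI -14 (chr1:58419734-58419783, minus strand): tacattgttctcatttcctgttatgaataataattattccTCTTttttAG
Itsn2, ΔPSI 33 (chr12:4712417-4712466, plus strand): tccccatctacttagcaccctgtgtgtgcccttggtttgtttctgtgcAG
These ends are examples, and the motif shares over all introns with sequence follow.

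Over all 105 introns of at least 50 nt with sequence, 36 (34.3%) had TCTT in the last 50 nt and 10 (9.52%) had CTCTCT. In the 3864 other annotated retained introns of the mouse genome the shares were 43.3% and 7.48%. TCTT was found in 13 of 45 introns at -10 points or less, in 18 of 51 with smaller negative values and in 5 of 8 with positive values. All 106 introns with sequence begin with GT and end with AG. Their median GC content was 50.7%, against 51.6% in the other annotated retained introns. In the 20 nt before the final AG, pyrimidines made up 70% in the median, against 75%. The Spearman correlation of GC content with ΔPSI was -0.09 over 106 introns. These shares describe letters in a window and are no evidence of binding.

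Several spans overlap another event of the same gene in their coordinates. Their ΔPSI values may share reads, which was not tested. This held for 21 retained introns, which form 28 pairs with another event. The 2 values had the same sign in 20 pairs and opposite signs in 8. In Clk1 the span at -14 points encloses a 91-nt cassette exon at -19. In Rps24, a protein of the small ribosomal subunit, the span at -13 encloses an 18-nt exon at -3 and a 20-nt exon at -8, and the pair is listed as tandem cassettes at -15. Sugp2 went the other way, with the intron at -35, an alternative 5' splice site over the same coordinates at 15 and a cassette exon at 16. In Idh3b, a subunit of mitochondrial isocitrate dehydrogenase, the intron was at -10, with an overlapping 3' splice site at 44 and a cassette exon at 51.5. In Prkcd the intron at 25 shares 1 end with an alternative 5' splice site at 36.

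A pair of retained introns was found in 9 genes. The signs were the same in each gene but Prkcd, where one intron was at 25 and the other at -15. Tmem191c had -35 and -20, and BC051142 -15 and -14. Arfrp1, a GTPase of the Golgi, had -14 and -12, and Clk1 -14 and -7. The values were -9 and -5 in Glt8d1, -6 and -5 in Pomt1, an enzyme that adds mannose to proteins, -4 and -2.5 in Mum1 and -3 and -1 in Trim28. Introns of 1 gene share their transcripts and are not independent.

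By function, the RNA processing list held the most retained introns of the lists, and also the most genes with any splicing event, 44. Of 221 genes in that list, 16 had a retained intron and all 17 events were negative, with a median of -7 points. Over all retained introns 88.3% were negative, and the median was -8. Ccnl1, a cyclin that associates with splicing factors, and Srsf7, an SR splicing factor, were at -18. The kinase Clk1 was at -14 and -7 and its relative Clk3, which also phosphorylates SR proteins, at -13. Luc7l2 was at -12, and Ddx5, Tardbp, Nxf1 and Xrn2 were at -7. None of the introns on this list reached 20 points. Some genes with RNA-related functions are not on it. Among them are Sugp2 at -35, Jmjd6 at -24, Ddx54 at 13 and Srrt at 3.

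Ribosome and translation genes held 10 retained introns among 158 listed genes, 8 negative and 2 at 0, with a median of -5 points. They include Rpl34 at -40, Rpl12 at -20, Rps24 at -13 and Rpl9 at -10. The elongation factor genes Eef1g and Eef2 were at -1, and Eef1a1 and Rpl7 at 0. Together with Gpx4 and Tubb4b, Eef1a1 and Rpl7 make up the 4 retained introns with a ΔPSI of 0.

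The 5 introns of cytoskeleton and junction genes, from a list of 200, had a median of -19 points. They are in Baiap2 and Myo9b at -22, Tubgcp4 of the microtubule nucleating complex at -19, the microtubule end-binding gene Mapre3 at -13 and Arhgef2, a microtubule-bound exchange factor for small GTPases, at -10. Membrane traffic genes held 9 introns from 190 genes, 8 of them negative, with Itsn2 at 33 and Arfrp1, the endoplasmic reticulum GTPase Atl3 and Rabggta, which attaches lipids to Rab proteins, between -14 and -12. The 7 introns of kinases and signalling genes, from a list of 242, include Ikbkb at -20, the mTOR partner Rptor at -17 and Map2k7 at -9 beside Prkcd.

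Genes of spermatids, acrosome and flagellum held 8 introns from 205 genes, all negative, with a median of -7.5 points. Over all retained introns 88.3% were negative. Ncrna00085, paired with Spaca6 and at -36, is not on that list. Izumo1 was at -26, Ccdc114, which docks dynein arms in cilia, at -15, Ccdc108 at -10 and Catsperg1, of the sperm calcium channel, at -8. Izumo1 and Odf2, at -1, are also on the list of 20 spermatid markers, and of this pair only Izumo1 is in the expression table. Chromatin and transcription genes held 5 introns from 267 genes, with Mta1 at 26, Chd4 at -6, Arid2 at -4 and Trim28 at -3 and -1. The 4 introns of metabolism genes (list of 190) were at -20 in Cpt1c, -10 in Idh3b, -8 in the phosphofructokinase Pfkm and 1 in Slc25a39. The 5 of ubiquitin and folding genes (list of 195) lay between -12 in Dnajb2 and -2. The 3 of cell cycle and repair genes (list of 193) were at -6 in Top2a, -5 in Top3b and -3 in Lig3. In no list were 119 genes, with 124 introns and a median of -9 points.

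**Figure D4:**
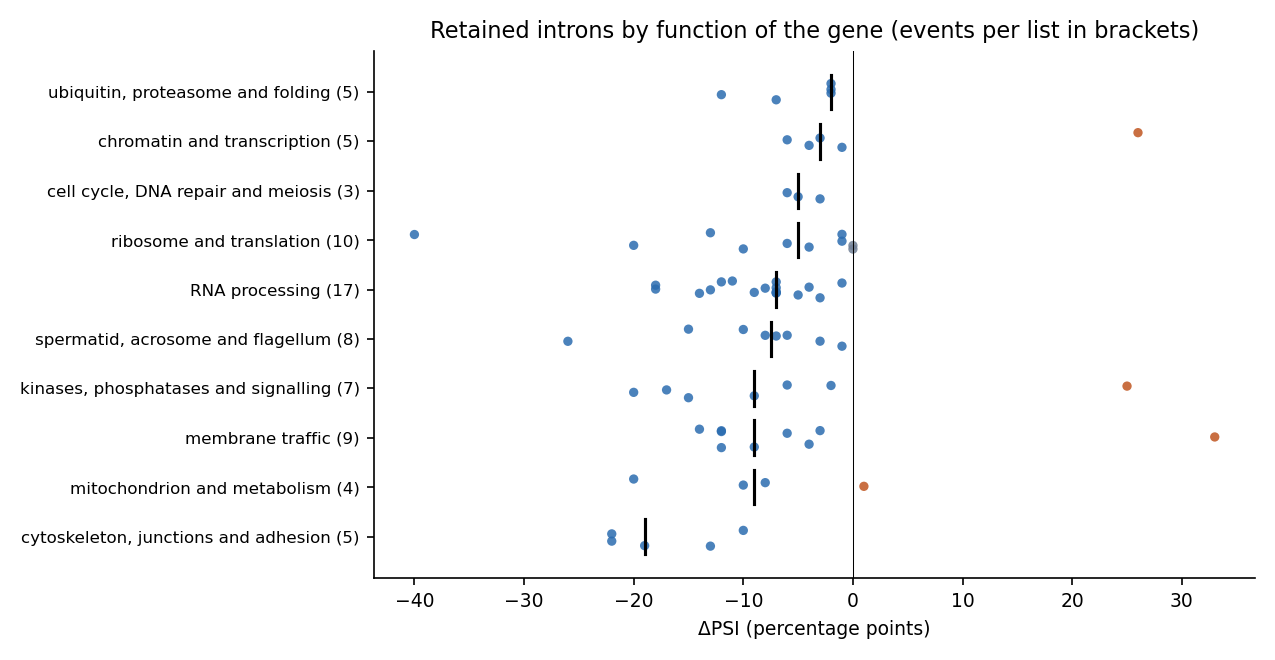
ΔPSI in percentage points (horizontal axis) of retained introns by list of gene function; points are introns, spread vertically for legibility, and black bars are list medians. The medians run from -2 for ubiquitin and folding genes to -19 for cytoskeleton genes, and the 4 positive points are Mta1, Prkcd, Itsn2 and Slc25a39.

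Of the 188 genes with a retained intron, 14 (7.45%) are among the 988 genes of the expression table, which the authors selected for difference between the genotypes. For genes of the other event types together the share was 9.92%. By the authors' deposited fold changes 13 of the 14 were lower in the libraries labelled cKO and 1 was higher, in a table with 93.6% lower genes. In limma on log2(RPKM + 1), with Benjamini-Hochberg adjustment over all 988 genes, 12 of the 14 fell (83.9% of all genes did) and 0 rose (1.92% of all genes). The same 12 lower and 0 higher genes passed an unadjusted p under 0.05. All 14 separated the genotypes without overlap, as did 100% of the table. Without WT library 1, 5 of them fell, with 388 of the 988 genes called lower, and without WT library 2, 3 of them fell, with 353 of 988.

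Rpl34 had 168 and 158 RPKM in WT and 6.12 and 7.50 RPKM in the libraries labelled cKO, given here and for the next genes in the order of library 1 and library 2. Both labelled cKO libraries were far below both WT libraries, and the mean was 23.9-fold lower. The difference in limma was -4.40 ± 0.28 (SE) on the log2(RPKM + 1) scale, at an adjusted p of 0.0177. It kept that call in every alternative fit, with adjusted p between 8.05e-18 and 0.0333.

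Tmem191c, the gene with introns at -35 and -20 points, was measured at 6.02 and 7.42 RPKM in WT and at 1.44 and 0.79 RPKM in the libraries labelled cKO. Izumo1 had 19.1 and 20.8 RPKM in WT, against 4.16 and 1.53. Both fell, with limma differences of -1.88 ± 0.31 and -2.53 ± 0.43 (SE) and an adjusted p of 0.0177 each. In both, labelled cKO library 2 was the lowest.

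Ncrna00085 was at 15.4 RPKM in each WT library and at 5.16 and 4.85 RPKM in the libraries labelled cKO, which were close to each other. In limma the difference came to -1.45 ± 0.26 (SE), adjusted p 0.0177. Ace, the angiotensin-converting enzyme, which has a testis form, was likewise alike in both labelled cKO libraries. It stood at 23.7 and 27.1 RPKM in WT and at 9.03 and 8.63 RPKM there, with an intron at -8 points. Arhgef2 fell from 12.4 and 13.2 to 4.47 and 3.69 RPKM. The calls of Tmem191c, Ncrna00085, Ace and Arhgef2 were lost without WT library 1 and without WT library 2.

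1700029G01Rik had 57.6 and 64.4 RPKM in WT and 13.1 and 4.15 RPKM in the libraries labelled cKO, with an intron at -6 points. 1700026L06Rik had 37.5 and 46.7 against 12.3 and 6.51 RPKM, with an intron at -10. 2810408A11Rik had 26.1 and 29.9 against 6.64 and 5.22 RPKM, with an intron at -13. All 3 fell, and the latter 2 lost the call without WT library 2.

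Smaller falls were seen in Ccdc114, E230008N13Rik and Kif2c, a kinesin that takes microtubules apart. Ccdc114 went from 7.51 and 6.97 to 3.51 and 3.25 RPKM (intron at -15 points), and Kif2c from 53.8 and 57.1 to 32.0 and 31.1 RPKM (intron at -10). E230008N13Rik went from 28.2 and 28.3 to 16.6 and 12.2 RPKM (intron at -17). Their limma adjusted p was 0.0309, 0.0422 and 0.0369, and each call was lost without either WT library and with the replicate block. Kif2c and E230008N13Rik also lost the call with a pseudocount of 0.1 and with the filter of at least 5 RPKM in the mean.

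Dnajb2, a co-chaperone gene with an intron at -12 points, was at 54.5 and 54.0 RPKM in WT and at 38.3 and 27.8 RPKM in the libraries labelled cKO. Its adjusted p in limma was 0.0714. Srrt, a partner of the nuclear cap-binding complex and the 1 gene of the 14 with a positive intron, at 3 points, was the 1 listed as higher. It stood at 98.0 and 96.7 RPKM against 168 and 147 RPKM, with a limma difference of 0.69 ± 0.27 (SE) and an adjusted p of 0.0616. Both passed when either labelled cKO library was left out, but so did all 988 genes of the table, so that those fits say nothing about a single gene.

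The 15 retained introns of the 14 genes had a median ΔPSI of -13 points, against -7 in the other 182. Over the 14 genes the median deposited log2 fold change was -1.64, against -1.87 over all 988. RPKM was lower in labelled cKO library 2 than in library 1 for 13 of the 14, the exception being Rpl34. The median log2 ratio of library 2 to library 1 was -0.31, against -0.85 over the whole table. Most genes of the whole table were thus lower in library 2 as well. From the function lists, the expression table holds 5 RNA processing genes, of which 1 fell and 0 rose and none has a retained intron here. It also holds 15 cytoskeleton genes, of which 10 fell and 0 rose. Over all 988 genes 83.9% fell and 1.92% rose. The 1 ribosome gene in the expression table is Rpl34.

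**Figure D5:**
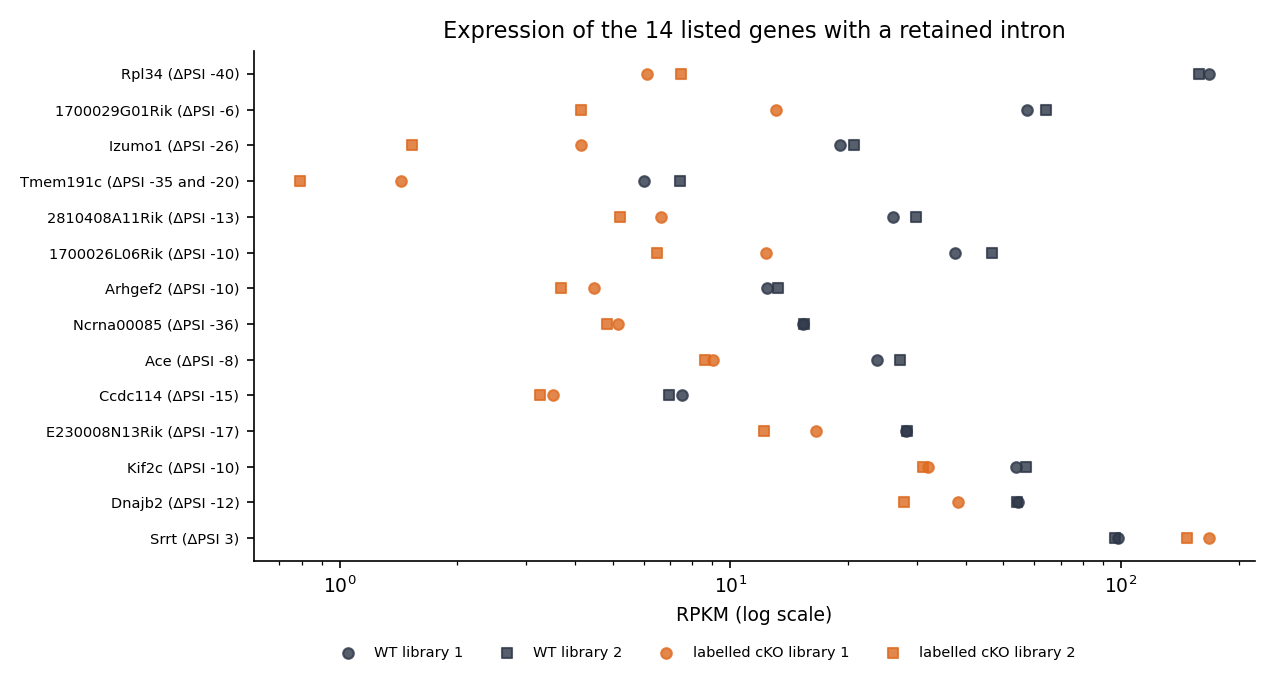
RPKM on a log scale in each of the 4 libraries for the 14 genes with a retained intron in the expression table, ordered by deposited log2 fold change, with ΔPSI beside each name. WT values lie above labelled cKO values for all but Srrt, and Rpl34 shows the widest gap, 158 and 168 against 6.12 and 7.50 RPKM.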

How the data were processed

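The authors deposited ΔPSI, a score in percentage points, for each splicing event, and RPKM per library, mean RPKM, log2 fold change and adjusted p-value for selected genes, per the file headers. Which splicing caller, aligner and tests the authors used is not given in the sources used here. Builds mm9 and mm10 are named in the submitters' processing notes. A second deposited splicing table has 257 events, 26 of them retained introns, and was not tested separately. Event coordinates were taken as mm9 with the start counted from 0, and are printed counted from 1. Gene names were matched to GENCODE M21 (GRCm38), 170 by symbol and 18 by RefSeq synonym. Introns were identified by gene and span length, with no conversion of coordinates, and sequences were read from GENCODE transcripts. The end of 1 further intron is not reported here.

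Expression was tested with limma 3.58.1 (R 4.3.3) on log2(RPKM + 1) with no block, Benjamini-Hochberg adjustment over 988 genes and a threshold of 0.05. The fit was tested on simulated data. A fold change on this scale understates that of low genes. The authors chose these genes on the same libraries, so the test is no independent evidence. An exact permutation test of 2 mice against 2 could not go below a two-sided p of 0.333. The depth of the libraries is unknown. Alternatives were the pseudocount, a filter on low RPKM, a replicate block, each library left out and synonyms. The named introns were those of 20 points or more, the 10 most extreme in each direction, the 3 shortest and longest, genes with 2 introns or in the expression table, and up to 4 per function list; Pdcd4, Slc9a5, Tubgcp4 and a few further list members were named after their values were seen. Members, lists and tests were chosen with earlier results of these data known. Python 3.11.15 and matplotlib 3.10.9 were used.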

Additional observations from a re-analysis of the deposited data

How the results depend on the processing

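The count of genes with a retained intron that fell was 12, where the whole table had 829 of 988. With a pseudocount of 0.1 it was 10, against 765 of 988 in the whole table. Among genes of at least 5 RPKM in the mean it was 9 of 13, against 629 of 830. Tmem191c was removed by that filter and did not lose its call. With synonyms the count stayed at 12. Leaving out 1 library gave 3 to 13 lower and 0 to 1 higher genes, where the whole table gave 353 to 925 lower and 0 to 63 higher of 988, and every gene was called without either labelled cKO library. With 1 library in a genotype, that library is assumed to vary like the others. With the replicate block 9 fell and 0 rose, against 622 and 2 in the whole table. Same-numbered libraries come from different mice, and the labels describe no pairing. The deviations of same-numbered libraries from their group means correlated at -0.33 over 988 genes. With 2 libraries per genotype this value cannot decide whether the numbers pair them. A block with crossed numbers, chosen after seeing the data, also gave 9 and 0, against 758 and 10 in the whole table. The negative share of 90.2% was 86.7% at 10 points or more, 89.7% with 1 intron per gene, 90.1% for spans of annotated length and 89.5% without spans that overlap another event (chosen after seeing the data). Among the 26 introns of 20 points or more it was 76.9%; the cause was not tested. Spearman's correlation between span and ΔPSI ran from -0.22 with 1 intron per gene to -0.07 at 10 points or more. None of the 14 genes changed direction in these fits.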

Other observations

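Of the 12 coding introns with sequence and no in-frame stop codon, 8 are a multiple of 3 nt, so that the retained form could be read through. Beside Myo9b (-22 points) they include Ccdc114 and Fxr1, an RNA-binding protein gene, at -15, BC051142 at -14 and Usp53, at 10. Whether such forms are translated was not tested.

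Of the 188 genes with a retained intron, 39 also have a cassette exon, while 644 of all 915 genes in the table have one. These counts cannot be compared. A gene without a retained intron is in the table only through another type of event, and 741 of the 1223 events are cassette exons. Atl3, with an intron at -12 points, has a 108-nt exon at -59 elsewhere in the gene. Gas5, a long noncoding RNA gene that hosts small nucleolar RNAs in its introns, had a span of 597 nt at -7.5 points.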
